A study of Mus musculus with 4 samples.

Results

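The collagen gene family was represented by 82 of the 45101 probe sets on the array, and these named 42 of the 18193 measured genes. A probe set was taken as a member when the platform annotation gave it a single gene symbol made of Col, a number, the letter a and a number. Of the 42 genes, 15 had 1 probe set and 27 had several. The tissue was the proliferative zone of the growth plate, cut by needle from 40 µm hindlimb sections of proximal tibia and distal femur at postnatal day 7, in mice of the C57BL/6 background. The 2 Control arrays are of mice labelled wild-type, and the 2 Cilia-deleted arrays are of Col2aCre;Ift88fl/fl mice, in which Cre recombinase under a Col2a promoter removes Ift88, a gene needed to build the primary cilium. Whether the controls carried the Cre or a floxed allele was not given in the sources used here. Which cells of the cut pieces had lost Ift88 was not measured here. The design calls the samples of a group biological replicates and does not say how many animals made up each.

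Collagens are trimers of chains wound into a helix, and the chain combination sets where a collagen goes. Fibrillar collagens form the cables of cartilage, bone and tendon, FACIT collagens sit on the surface of such fibrils, short-chain collagens form open networks, basement membrane collagens form sheets around vessels and other tissues, and transmembrane collagens stay anchored in the cell surface. Proliferative chondrocytes are known for type II, IX and XI collagen and hypertrophic chondrocytes for type X. The perichondrium around the growth plate and the bone beneath it are known for types I, III, V, XII and XIV.

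Each value below is a log2 value from which the probe set's own median over all 4 arrays has been subtracted, averaged over the probe sets of a gene. Such values give differences between arrays and no expression level, so no collagen can be called more abundant than another. Differences are Cilia-deleted minus Control, and the test is limma's moderated two-sided test over all genes, with Benjamini-Hochberg adjusted p values and a threshold of 0.05. An exact permutation test of 2 arrays against 2 cannot give a p under 0.333 and was not used. In bulk tissue, fewer cells of a type and less RNA per cell cannot be told apart.

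Ift88 itself was at 0.07 and -0.08 in the arrays labelled Control and at 0.22 and -0.07 in those labelled Cilia-deleted (difference 0.08, 95% interval -0.30 to 0.46), so its values did not separate the groups. It has 1 probe set, and whether that lies in the removed part of the gene was not given in the sources used here, so the genotype labels could not be checked by it, and group names throughout are those of the labels. The groups did differ in sex-linked genes: Xist, which silences 1 X chromosome in female cells, was at 3.58 and 3.74 in the Control arrays and at -3.79 and -3.61 in the Cilia-deleted arrays, and the Y-linked gene Eif2s3y ran the other way (difference 3.34). Sex by these genes and genotype therefore cannot be told apart for any collagen. Over all genes the SD of the difference between both Control arrays was 0.339, that between both Cilia-deleted arrays 0.239 and that between the group means 0.246. The labelled cell type could not be checked by expression level, since the values are centred. Of 14 probe sets for 8 cartilage genes such as Acan, Sox9 and Matn1, 0 had the fine numeric step of a lowest value under 4 on the log2 scale, 1 had the step of a value under 8 and 13 set no limit. Over all probe sets these shares were 16.2%, 50.4% and 32.3%. A coarse step can arise by chance, so it gives no lower bound on a value.

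No collagen gene passed the threshold. By gene 0 of 42 passed with limma, where 0.011% of all genes did, and by probe set 0 of 82 passed, where 0.0444% of all did. The 2 genes that passed over all genes were the sex-linked Xist and Eif2s3y. At an unadjusted p under 0.05 there were 3 collagen genes with higher values in the Cilia-deleted arrays (7.14%, against 2.29% of all genes) and 0 with lower values (against 3.68% of all genes). These were Col8a2, Col4a2 and Col25a1. The 2 groups did not overlap, with the Cilia-deleted arrays higher, for 10 collagen genes (23.8%, against 14.7% of all genes), and with them lower for 3 (7.14%, against 18.6%). The difference between groups was larger than both gaps between replicates for 8 genes (19%, against 21.3% of all genes). They were Col8a2, Col4a2, Col25a1, Col4a5, Col17a1, Col26a1, Col6a5 and Col7a1, of which Col7a1 alone had lower values in the Cilia-deleted arrays. Every probe set of Col17a1, Col26a1 and Col6a5 had the fine numeric step of a lowest value under 4, so these genes had low signal in some array.

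**Figure D1:**
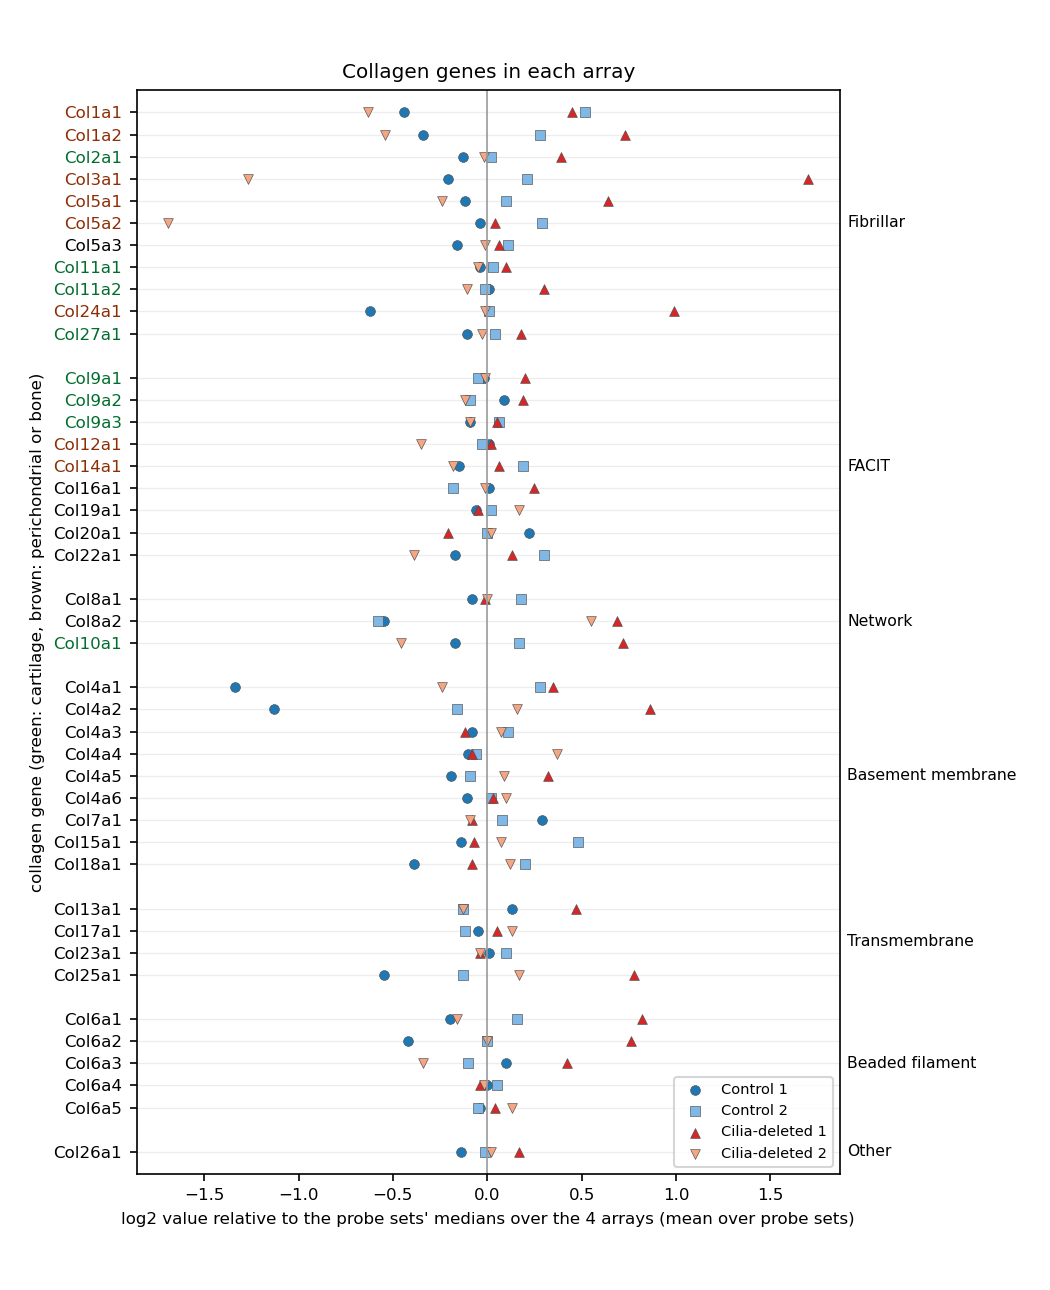
Value of each of the 42 collagen genes in each of the 4 arrays, grouped by class from top to bottom, with the log2 value relative to the probe sets' medians on the horizontal axis. The Col8a2 points fall into separate pairs by group, the Col3a1 points of the Cilia-deleted arrays lie at 1.70 and -1.27 on either side of both Control arrays, and the cartilage collagens other than Col10a1 lie close to 0.

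Across the family 29 genes lay above 0 and 13 below, with a median difference of 0.11, against -0.01 over all genes. The difference ranged from -0.96 (Col5a2) to 1.18 (Col8a2). A library moved with these values: Cilia-deleted 1 was above Cilia-deleted 2 for 31 of 42 collagen genes, against 47.7% of all genes, and the family's median was -0.11 in Control 1, 0.03 in Control 2, 0.18 in Cilia-deleted 1 and -0.02 in Cilia-deleted 2. The family's median gap between both Cilia-deleted arrays was 0.25, while over all genes it was 0.12. The gap between both Control arrays was 0.21 for the family and 0.20 over all genes.

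**Figure D2:**
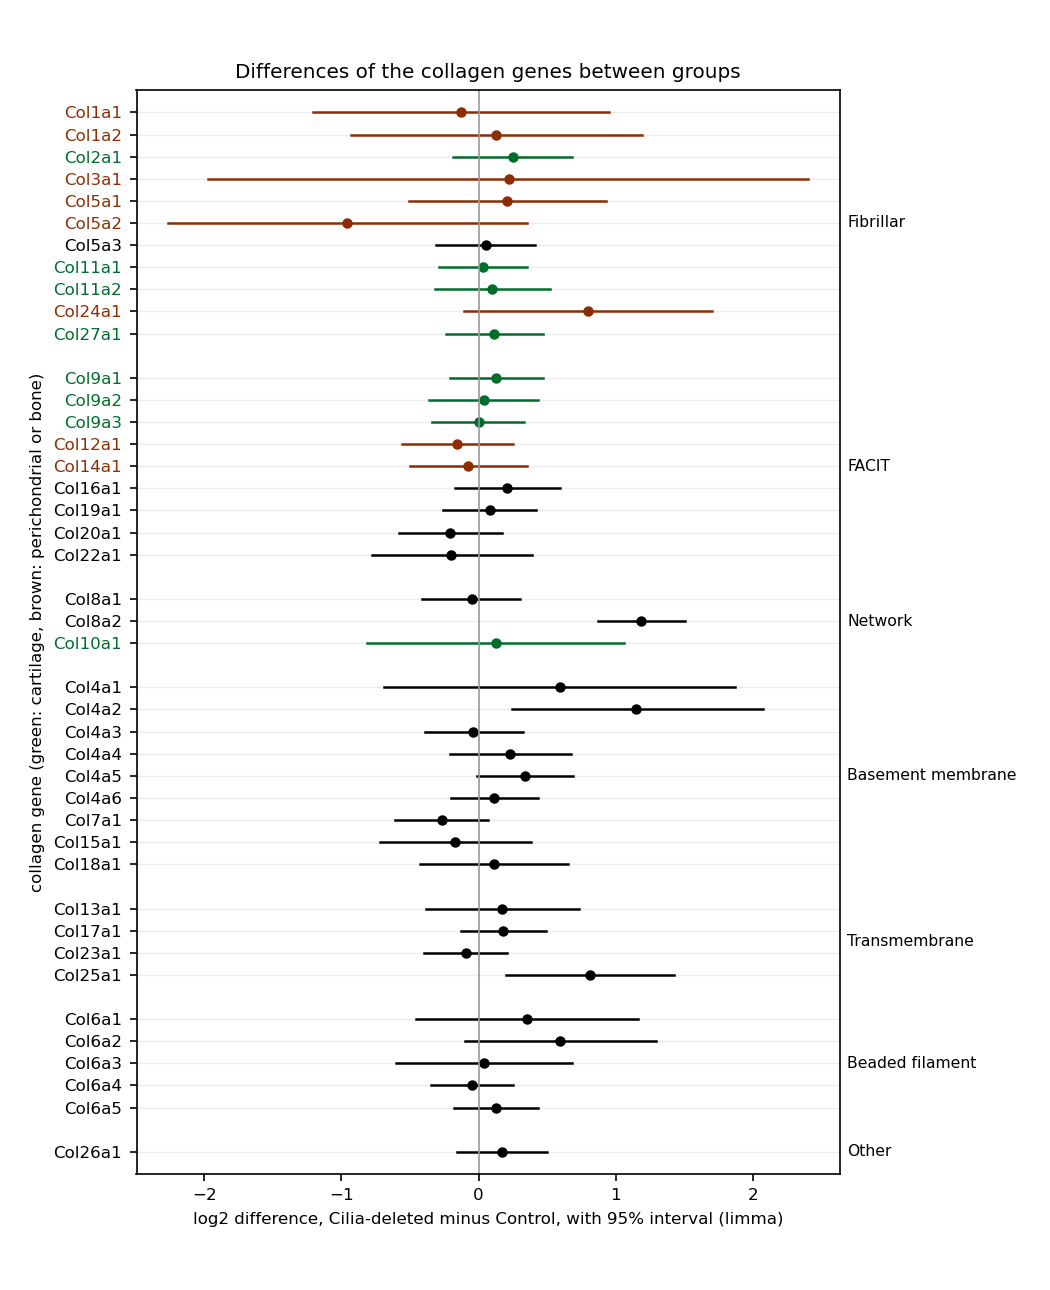
Difference of each collagen gene between groups (points, log2, Cilia-deleted minus Control, n = 2 arrays per group) with its 95% interval from limma, not adjusted for the number of genes. The intervals of Col8a2 (0.87 to 1.50), Col4a2 (0.24 to 2.07) and Col25a1 (0.20 to 1.42) lie above 0, and those of the cartilage collagens span 0.

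The collagens of cartilage itself differed by little between the groups. The 8 genes of this kind had a median difference of 0.10 and a range from 0.00 (Col9a3) to 0.25 (Col2a1), and none passed. Col2a1, which encodes the only chain of type II collagen, the main fibril of cartilage (chromosome 15, 97975602 to 98004724, GRCm38.p6), was at -0.13 in Control 1, 0.02 in Control 2, 0.39 in Cilia-deleted 1 and -0.02 in Cilia-deleted 2. Cilia-deleted 1 stood above the rest and Cilia-deleted 2 lay between both controls. The difference was 0.25 (SE 0.176, 95% interval -0.19 to 0.68, adjusted p = 0.946), so a change beyond 1 log2 unit in either direction lies outside the interval. It was 0.04 without Cilia-deleted replicate 1, 0.17 without Control replicate 1 and 0.45 without Cilia-deleted replicate 2. The Cre of the Cilia-deleted mice is driven by a promoter of this gene's name, and how the probe set relates to the transgene was not analysed here.

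Col11a1 and Col11a2 encode chains of type XI collagen, which sits inside type II fibrils and limits their width. Col11a1 was at -0.04 and 0.03 in the Control arrays and at 0.10 and -0.05 in the Cilia-deleted arrays (difference 0.03, 95% interval -0.29 to 0.35). Col11a2 was at 0.01 and -0.01 against 0.30 and -0.11 (difference 0.10, 95% interval -0.32 to 0.52). The groups overlapped for both. Col27a1, a fibrillar collagen of cartilage with a shortened helix, was at -0.11 and 0.04 against 0.18 and -0.03 (difference 0.11, 95% interval -0.24 to 0.47).

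The chains of type IX collagen, the FACIT collagen that decorates type II fibrils, stayed within narrow limits too. Col9a1 was at -0.02 and -0.05 in the Control arrays and 0.20 and -0.01 in the Cilia-deleted arrays (difference 0.13, 95% interval -0.21 to 0.47). Its groups did not overlap, by a margin smaller than the gap between replicates. Col9a2 was at 0.09 and -0.09 against 0.19 and -0.12 (difference 0.04, 95% interval -0.36 to 0.43), and Col9a3 at -0.09 and 0.06 against 0.05 and -0.09 (difference 0.00, 95% interval -0.34 to 0.33). The intervals of the type IX, XI and XXVII chains all lay between -0.36 and 0.52.

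Col10a1, the collagen of hypertrophic cartilage (chromosome 10, 34389981 to 34397085), was the exception in spread. It was at -0.17 and 0.17 in the Control arrays and at 0.72 and -0.46 in the Cilia-deleted arrays. Both Control arrays lay between both Cilia-deleted arrays, which differed 2.26-fold from each other. The difference between groups was 0.13 (SE 0.379, 95% interval -0.81 to 1.06). Cilia-deleted 1 was the highest of the 4 arrays for 7 of 8 cartilage collagens, where it was so for 16.3% of all genes, and Cilia-deleted 1 was above Cilia-deleted 2 for 8 of 8. In the list of other cartilage genes Cilia-deleted 1 was above Cilia-deleted 2 for 7 of 8, with medians of 0.12, -0.01, -0.02 and -0.08 in Control 1, Control 2, Cilia-deleted 1 and Cilia-deleted 2. Without Cilia-deleted replicate 1 the median difference of the cartilage collagens was -0.06.

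In the collagens of perichondrium and bone the Cilia-deleted arrays lay far apart, and the groups overlapped. The 8 genes had a median difference of 0.03, 4 lay above 0 and 4 below, and none had groups that did not overlap. For 8 of 8, as for 8 of 8 cartilage collagens, the gap between both Cilia-deleted arrays was larger than the difference between the groups. That count sets gaps between single arrays beside differences between means of 2 arrays. Its share over all genes was not computed. The median gap between the Cilia-deleted arrays was 1.04, against 0.27 for the cartilage collagens and 0.12 over all genes. Cilia-deleted 1 was above Cilia-deleted 2 for 8 of 8, Cilia-deleted 2 was the lowest of the 4 arrays for 7 of 8 (25% of all genes), and Control 2 was above Control 1 for 7 of 8 (51.6% of all genes). Their median was -0.18 in Control 1, 0.20 in Control 2, 0.55 in Cilia-deleted 1 and -0.44 in Cilia-deleted 2.

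Col3a1, the chain of type III collagen of loose connective tissue (chromosome 1, 45311538 to 45349706), showed the widest spread. It was at -0.21 in Control 1, 0.21 in Control 2, 1.70 in Cilia-deleted 1 and -1.27 in Cilia-deleted 2. The Cilia-deleted arrays lay on opposite sides of both controls and 7.87-fold apart, a gap that ranked 3 among all 18193 genes. The difference between groups was 0.22 (SE 0.889, 95% interval -1.97 to 2.40). It depended on which array was kept: without Cilia-deleted replicate 2 it was 1.70 (adjusted p = 0.0134) and without Cilia-deleted replicate 1 it was -1.27 (adjusted p = 0.0666), fits in which the lone Cilia-deleted array is assumed to vary like the Control arrays. Over the 4 fits that each left out 1 array, the adjusted p ranged from 0.0134 to 1.

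Col5a2, a chain of type V collagen that starts type I fibrils (chromosome 1, 45374331 to 45503282), lies 24624 bases from Col3a1 and shared the low value in Cilia-deleted 2 alone. It was at -0.04 and 0.29 in the Control arrays, 0.04 in Cilia-deleted 1 and -1.69 in Cilia-deleted 2. So 3 arrays lay together and 1 stood 3.31-fold below its replicate, a gap that ranked 10 over all genes. The difference was -0.96 (SE 0.529, 95% interval -2.26 to 0.35, adjusted p = 0.908), which was -1.82 without Cilia-deleted replicate 1 (adjusted p = 0.00598) and -0.09 without Cilia-deleted replicate 2 (adjusted p = 1). Its partner chain Col5a1 was at -0.12 and 0.10 against 0.64 and -0.24 (difference 0.21, 95% interval -0.51 to 0.93). The chains of type V collagen thus had differences of opposite sign, and the groups overlapped for both.

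Col1a1 and Col1a2, which encode the chains of type I collagen of bone, followed each other across the arrays. Col1a1 was at -0.44 in Control 1, 0.52 in Control 2, 0.45 in Cilia-deleted 1 and -0.63 in Cilia-deleted 2. Col1a2 was at -0.34, 0.28, 0.73 and -0.54 in the same order. For both, Control 2 and Cilia-deleted 1 were high, Control 1 and Cilia-deleted 2 were low, and the groups overlapped. The differences were -0.13 (95% interval -1.21 to 0.95) and 0.13 (95% interval -0.93 to 1.19), while the gaps were 0.95 and 0.62 between the Control arrays and 1.08 and 1.27 between the Cilia-deleted arrays.

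Col24a1, a minor fibrillar collagen of bone-forming tissue (chromosome 3, 145292472 to 145552013), had the largest positive difference of these 8 genes. It was at -0.62 and 0.01 in the Control arrays and at 0.99 and -0.01 in the Cilia-deleted arrays. Control 2 and Cilia-deleted 2 had nearly the same value, so the difference of 0.80 (SE 0.368, 95% interval -0.11 to 1.70, adjusted p = 0.871) rested on Control 1 and Cilia-deleted 1. It was 0.48 without Control replicate 1, 0.29 without Cilia-deleted replicate 1 and 1.30 without Cilia-deleted replicate 2. Col12a1 and Col14a1, FACIT collagens of dense connective tissue, were at 0.01 and -0.03 against 0.02 and -0.35, and at -0.15 and 0.19 against 0.06 and -0.18. Their differences were -0.16 (95% interval -0.56 to 0.25) and -0.08 (95% interval -0.50 to 0.35).

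Genes of perichondrium, bone and tendon other than collagens shared part of this pattern. Of 10 such genes 8 were measured, with medians of 0.05, 0.00, 0.18 and -0.32 in Control 1, Control 2, Cilia-deleted 1 and Cilia-deleted 2. Cilia-deleted 1 was above Cilia-deleted 2 for 8 of 8, as for the collagens, while Control 2 was above Control 1 for 4 of 8. Postn, which encodes periostin of the perichondrium and periosteum, was at 0.65, -1.14, 3.47 and -0.65 in that order, and Ibsp, a bone sialoprotein gene, at -0.61, 1.30, 0.61 and -1.08. Other members ran differently. Sp7, a transcription factor of osteoblasts, was at 0.15, 0.13, -0.13 and -0.68, and Dmp1, a matrix protein gene of bone cells, at 0.27, 0.31, -0.41 and -0.44, so both were lower in both Cilia-deleted arrays (adjusted p = 0.82 and 0.321). Dcn, which encodes the collagen-binding proteoglycan decorin, was at -1.25, -0.17, 0.26 and 0.22 and higher in both (adjusted p = 0.818).

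Between the Control arrays, markers of osteoclasts and of blood and marrow differed in the direction of the perichondrial or bone collagens. Control 2 was above Control 1 for 5 of 5 osteoclast genes, with medians of -0.35 in Control 1, 1.56 in Control 2, -0.30 in Cilia-deleted 1 and 0.21 in Cilia-deleted 2. It was so for 7 of 7 blood and marrow genes, with medians of -0.37, 0.56, -0.02 and 0.07. Between the Cilia-deleted arrays, array 1 was above array 2 for 0 of 5 osteoclast genes and 3 of 7 blood and marrow genes. These values give no levels, and the part of these marker lists in the collagen values was not tested.

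**Figure D3:**
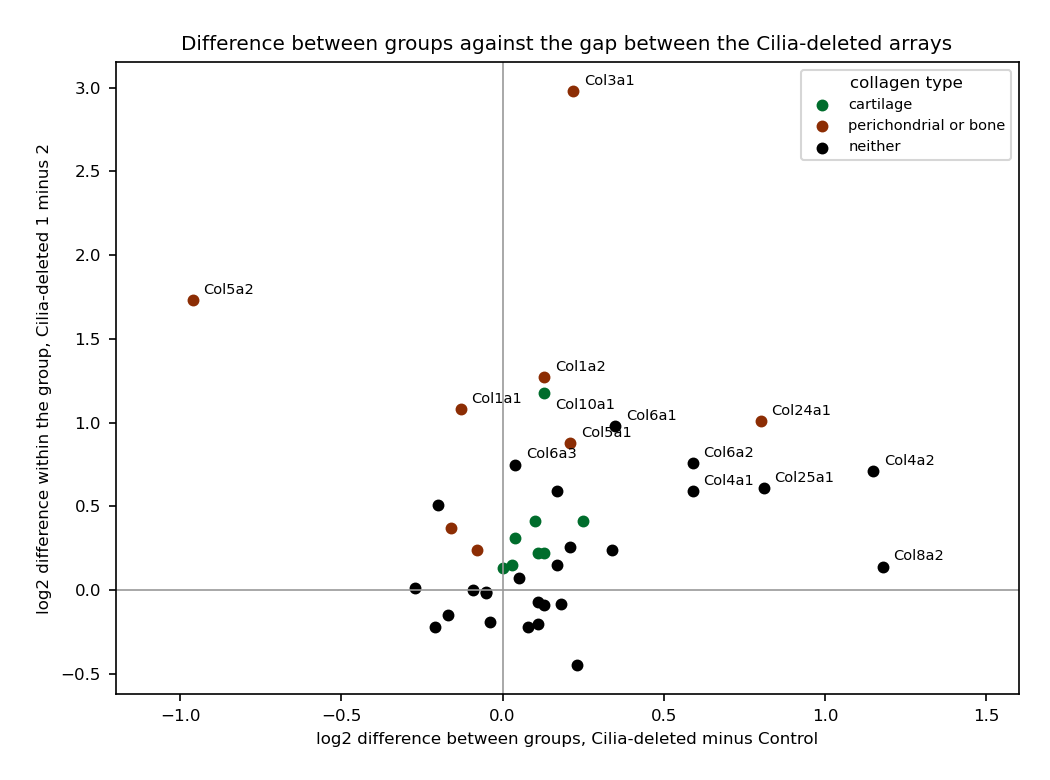
For each collagen gene, the log2 difference between groups (horizontal) against the log2 gap between the Cilia-deleted arrays (vertical, array 1 minus array 2), coloured by the tissue a collagen is known for. Col3a1 (0.22 and 2.98) and Col1a2 (0.13 and 1.27) have a large gap and a small difference, and Col8a2 (1.18 and 0.14) the reverse.

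Among the short-chain network collagens Col8a2 had the largest difference of the family, well above the gaps between its replicates. Col8a2 encodes a chain of type VIII collagen, known from the basement membrane of the corneal endothelium and from vessel walls (chromosome 4, 126286794 to 126314330). It was at -0.55 in Control 1, -0.58 in Control 2, 0.69 in Cilia-deleted 1 and 0.55 in Cilia-deleted 2. Both Cilia-deleted arrays lay above both Control arrays, and the gaps between replicates were 0.03 and 0.14. The value was 2.27-fold higher in the Cilia-deleted arrays (difference 1.18, SE 0.129, 95% interval 0.87 to 1.50, n = 2 per group), with an unadjusted p of 0.00011. Over all genes the adjusted p was 0.142, so it did not pass. The adjusted p was 0.863 in the unmoderated fit and 0.4 in the fit with the replicate number as a block. Over the 4 fits that each left out 1 array the difference stayed between 1.11 and 1.25. The gene has 1 probe set, 1434667_at. Its partner chain Col8a1 was at -0.08 and 0.18 against -0.01 and 0.00 (difference -0.05, 95% interval -0.41 to 0.30). Control 2 was its highest array, and its groups overlapped.

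The RefSeq sequence before the start of Col8a2 (GRCm38.p6, chr4:126286544-126286793, plus strand, 5′ to 3′) is shown because this gene had the clearest separation between groups, with matches to the searched motifs in capitals:
Col8a2: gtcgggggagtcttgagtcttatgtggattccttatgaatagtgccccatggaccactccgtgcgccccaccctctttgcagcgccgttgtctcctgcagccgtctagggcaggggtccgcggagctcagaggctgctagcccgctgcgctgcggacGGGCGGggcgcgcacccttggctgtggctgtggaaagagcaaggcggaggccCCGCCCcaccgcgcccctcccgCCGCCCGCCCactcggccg
The capitals mark 4 matches to the GC box GGGCGG on either strand, 2 of which overlap. For contrast, the same stretch is given for Col3a1 (chr1:45311288-45311537, plus strand), whose Cilia-deleted arrays lay farthest apart, and for Col24a1 (chr3:145292222-145292471, plus strand):
Col3a1: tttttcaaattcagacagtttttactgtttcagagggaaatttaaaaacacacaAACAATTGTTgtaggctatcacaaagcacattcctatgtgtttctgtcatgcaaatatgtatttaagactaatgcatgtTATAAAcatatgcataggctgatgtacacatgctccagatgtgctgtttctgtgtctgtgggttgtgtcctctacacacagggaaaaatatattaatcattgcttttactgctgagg
Col24a1: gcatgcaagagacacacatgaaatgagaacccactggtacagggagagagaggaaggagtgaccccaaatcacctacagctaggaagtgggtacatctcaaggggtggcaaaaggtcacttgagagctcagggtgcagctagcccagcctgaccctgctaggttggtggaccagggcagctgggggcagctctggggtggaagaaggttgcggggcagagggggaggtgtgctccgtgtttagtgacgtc
The capitals in Col3a1 mark 1 TATA match (TATAAA) and 2 overlapping matches to a Sox motif (AACAAT), and the stretch before Col24a1 holds no match to the 6 motifs.

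RefSeq windows of 300 bases, 250 before and 50 after a start, were found for 33 of the 42 collagen genes (36 windows). GGGCGG on either strand was in 22 of the 36 windows (61.1%), against 35.7% of all 32851 windows. CCAAT was in 13 (36.1%, against 37.4%) and TATAAA in 5 (13.9%, against 13.6%). A Tcf/Lef motif, CTTTGA, was in 9 windows (25%, against 16%) and AACAAT in 1 (2.78%, against 10.7%). GACCACCCA, a motif of the Gli factors of Hedgehog signalling, was in 0 of 36 and in 0.253% of all windows. These are matches of letters in short windows, and no binding was measured here.

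Among basement membrane collagens the largest difference was that of Col4a2, and Control 1 was often the lowest array. Col4a1 and Col4a2, the chains of type IV collagen found in nearly all basement membranes, lie head to head on chromosome 8 (11198423 to 11312889 and 11312805 to 11449287), and their annotated ends overlap by 85 bases. Col4a2 was at -1.13 in Control 1, -0.16 in Control 2, 0.86 in Cilia-deleted 1 and 0.16 in Cilia-deleted 2. Its groups did not overlap, and the difference of 1.15 (SE 0.372, 95% interval 0.24 to 2.07, adjusted p = 0.792) was larger than the gap of 0.97 between the Control arrays. Col4a1 was at -1.34, 0.28, 0.35 and -0.24 in the same order, so that Control 1 alone stood low and the groups overlapped (difference 0.59, 95% interval -0.69 to 1.87). Without Control replicate 1 the differences were 0.67 for Col4a2 and -0.22 for Col4a1.

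The other type IV chains showed smaller values. Col4a3 and Col4a4, whose annotated ends overlap by 114 bases on chromosome 1, had differences of -0.04 (95% interval -0.39 to 0.32) and 0.23 (95% interval -0.21 to 0.67). Col4a3 was at -0.08 and 0.11 against -0.12 and 0.07, and Col4a4 at -0.10 and -0.06 against -0.08 and 0.37, and the groups overlapped for both. Col4a5 and Col4a6 lie 1274 bases apart on X, the chromosome whose Xist RNA divided the groups. Col4a5 was at -0.19 and -0.09 against 0.32 and 0.09 (difference 0.34, SE 0.143, 95% interval -0.01 to 0.69), and Col4a6 at -0.11 and 0.02 against 0.03 and 0.10 (difference 0.11, 95% interval -0.20 to 0.43). Both had higher values in both Cilia-deleted arrays, and for these X-linked genes genotype and sex cannot be told apart.

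Col7a1, the anchoring fibril collagen of skin, was at 0.29 and 0.08 in the Control arrays and at -0.08 and -0.09 in the Cilia-deleted arrays. It had the largest difference of the 3 collagens whose groups lay apart with the Cilia-deleted arrays lower (-0.27, 95% interval -0.61 to 0.07). Col15a1 and Col18a1, which are found at vessel and muscle basement membranes, were at -0.14 and 0.48 against -0.07 and 0.07, and at -0.39 and 0.20 against -0.08 and 0.12. Their differences were -0.17 and 0.11, and Control 1 was the lowest array for both. Control 1 was the lowest of the 4 arrays for 7 of the 9 genes of this class, where it was so for 34.2% of all genes. Of 6 endothelial genes, Control 1 was the lowest for 4. These were Kdr (-0.72, 0.27, -0.09 and 0.09), Tek (-0.67, 0.21, -0.13 and 0.13), Pecam1 (-0.23, 0.05, -0.05 and 0.17) and Emcn (-0.13, 0.23, 0.07 and -0.07). Cdh5 (-0.03, 0.18, 0.08 and -0.19) and Tie1 (0.19, -0.01, 0.01 and -0.13) were lowest in Cilia-deleted 2, and Tie1 was highest in Control 1. Kdr, Tek and Tie1 are receptors of vessel cells. The list's median was -0.18 in Control 1, 0.19 in Control 2, -0.02 in Cilia-deleted 1 and 0.01 in Cilia-deleted 2. Of the 7 probe sets for these genes, 3 had the fine numeric step of a lowest value under 4. A further 2 had the step of a value under 8 and 2 set no limit, so part of the list had low signal. The part of these endothelial genes in the type IV values was not tested.

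Transmembrane collagens held 1 gene with a larger difference. Col25a1, known from neurons and developing muscle (chromosome 3, 130180358 to 130599884), was at -0.55 and -0.13 in the Control arrays and at 0.78 and 0.17 in the Cilia-deleted arrays. Its groups did not overlap (difference 0.81, SE 0.248, 95% interval 0.20 to 1.42, unadjusted p = 0.0174, adjusted p = 0.738). It was 0.51 without Cilia-deleted replicate 1, and over the fits without 1 array it reached 1.12, with adjusted p values from 0.185 to 0.968. The difference came from 1 of its 2 probe sets: 1438540_at had a difference of 1.56 and 1421427_at of 0.06. Col17a1, of the attachment plaques of skin cells, was at -0.05 and -0.12 against 0.05 and 0.13 (difference 0.18). Col13a1, found at neuromuscular junctions, was at 0.13 and -0.13 against 0.47 and -0.13 (difference 0.17), and Col23a1 at 0.01 and 0.10 against -0.04 and -0.04 (difference -0.09). Skeletal muscle genes were lower in the Cilia-deleted arrays as group means for 10 of 10 list members, with medians of 0.08, 0.44, -0.06 and -0.09 in Control 1, Control 2, Cilia-deleted 1 and Cilia-deleted 2, and their part in the transmembrane collagen values was not tested. The list was uneven: Tnni2, Tnnc2 and Mylpf had differences of -1.96, -1.08 and -1.05, while Ckm, Des and Tnnt3 were at -0.08, -0.05 and -0.09.

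Type VI collagen forms beaded filaments around the chondrocyte, in its pericellular matrix. Col6a1 was at -0.20 and 0.16 in the Control arrays and at 0.82 and -0.16 in the Cilia-deleted arrays (difference 0.35, 95% interval -0.46 to 1.16). Col6a2 was at -0.42 and 0.00 against 0.76 and 0.00 (difference 0.59, SE 0.281, 95% interval -0.10 to 1.29, adjusted p = 0.881), its groups lying apart by less than the rounding of these values. It was 0.38 without Control replicate 1, 0.22 without Cilia-deleted replicate 1 and 0.97 without Cilia-deleted replicate 2. Col6a3 was at 0.10 and -0.10 against 0.42 and -0.34 (difference 0.04, 95% interval -0.60 to 0.68). In all 3 chains Cilia-deleted 1 was the highest array, and the gaps between the Cilia-deleted arrays were 0.98, 0.76 and 0.75. Col6a4 and Col6a5 had differences of -0.05 and 0.13. Their groups did not overlap, with values between -0.05 and 0.13 in all 4 arrays.

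The remaining collagens had differences between -0.21 and 0.21. Among FACIT collagens Col20a1 was at 0.22 and 0.00 against -0.21 and 0.02 (difference -0.21), and Col22a1, of tissue junctions, at -0.17 and 0.30 against 0.13 and -0.39 (difference -0.20). Both had groups that overlapped. Col16a1 (difference 0.21) and Col19a1 (difference 0.08) and the fibrillar chain Col5a3 (difference 0.05) overlapped as well. Col26a1, which belongs to none of the classes, was at -0.14 and -0.01 against 0.17 and 0.02 (difference 0.17), with groups that did not overlap. By class, the median difference was 0.11 for 11 fibrillar genes, 0.00 for 9 FACIT genes, 0.13 for 3 network genes, 0.11 for 9 basement membrane genes, 0.18 for 4 transmembrane genes and 0.13 for 5 beaded filament genes.

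Probe sets of 1 collagen did not always give the same difference. Of the 27 genes with several probe sets, 11 had differences of both signs and 4 had differences that spanned more than 0.5. For Col4a1, 1452035_at ran from -1.99 in Control 1 to 0.71 in Cilia-deleted 1. The gene's other probe set, 1426348_at, ran from -0.69 in Control 1 to 0.07 in Control 2. For Col12a1, 1434411_at stood at -1.59 in Cilia-deleted 2 and between -0.02 and 0.07 in the other arrays, while its other probe sets stayed between -0.16 and 0.20. The low value of Cilia-deleted 2 was thus seen in 1 of 4 Col12a1 probe sets, and in both probe sets of Col5a2 (-1.87 and -1.52) and of Col3a1 (-1.15 and -1.40). At an unadjusted p under 0.05 there were 3 collagen probe sets with higher values (3.66%, against 3% of all), which belong to Col8a2, Col4a2 and Col25a1, and 1 with lower values (1.22%, against 3.18% of all). The latter was 1453931_at of Col14a1, at 0.14 and 0.22 in the Control arrays and -0.14 and -0.28 in the Cilia-deleted arrays (difference -0.38, adjusted p = 0.789), and the gene's other 2 probe sets were at -0.05 and 0.21. By the numeric step of the values, 9 of the 82 collagen probe sets had a lowest value under 4, 40 a lowest value under 8, 31 set no limit and 2 could not be read. Over all probe sets these classes held 16.2%, 50.4%, 32.3% and 1.1%. Of the 13 probe sets for cartilage collagens 0 were in the lowest of these classes.

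**Figure D4:**
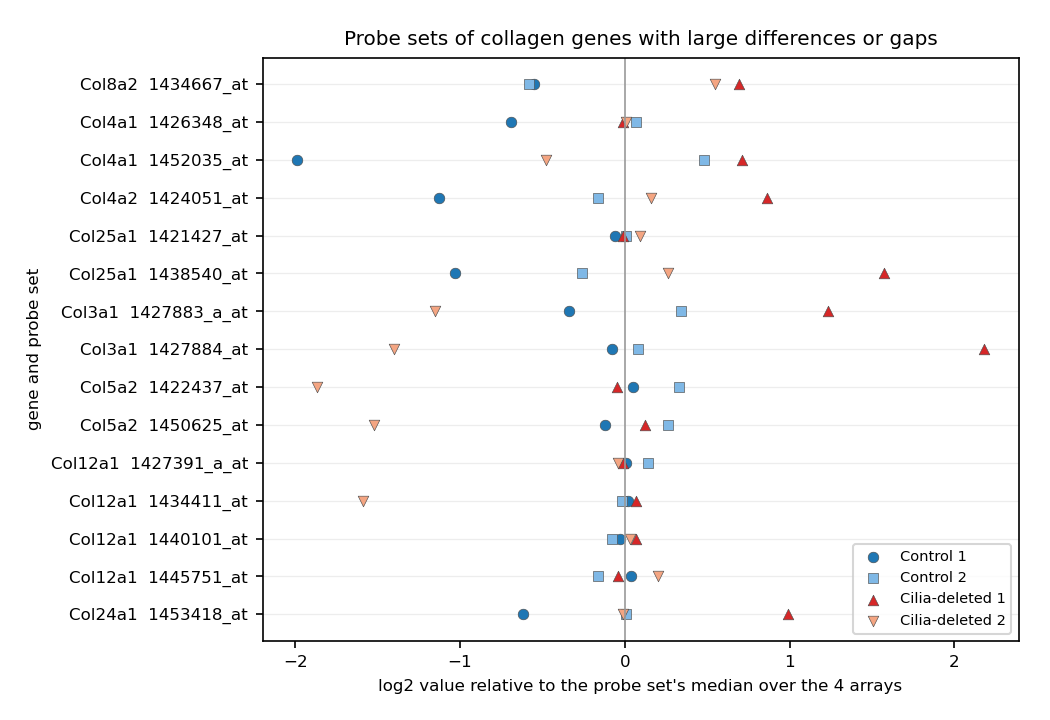
Values of the single probe sets of 8 collagen genes in each array, on the log2 scale relative to each probe set's median. Both probe sets of Col3a1 and of Col5a2 show Cilia-deleted 2 below the other arrays, 1 of 4 probe sets of Col12a1 does so, and 1 of 2 probe sets of Col25a1 separates the groups.

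Of 42 genes that make, cross-link, bind or regulate collagens, 37 were measured and 0 passed the threshold, 16 lying above 0 and 21 below. Over all 18193 genes, 8760 lay above 0 and 9433 below. The enzymes and chaperones that hydroxylate and fold collagen chains had lower values as group means in the Cilia-deleted arrays for 14 of 16 genes (median difference -0.28). The largest was that of P3h2, a prolyl 3-hydroxylase, at 0.37 and 0.50 in the Control arrays and at -0.37 and -1.46 in the Cilia-deleted arrays (difference -1.35, SE 0.345, adjusted p = 0.635). At an unadjusted p under 0.05 and with groups apart there were also P4ha2 (-0.53) and P4ha3 (0.50), which are prolyl 4-hydroxylase subunits, and Plod2 (-0.36), a lysyl hydroxylase. So 1 of the 37 measured genes was higher and 3 were lower at this p, where 2.29% and 3.68% of all genes were. The median of these 16 genes was 0.21 in Control 1, -0.01 in Control 2, 0.01 in Cilia-deleted 1 and -0.21 in Cilia-deleted 2, and Cilia-deleted 1 was above Cilia-deleted 2 for 15 of 16.

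The other related genes had smaller differences. Genes of export and propeptide cleavage had a median difference of 0.04 (8 measured), the lysyl oxidases that cross-link collagen 0.18 (4 measured) and collagen receptors 0.08 (6 measured). Sox5, Sox6 and Sox9, the transcription factors that drive the cartilage collagens, were at -0.01, -0.13 and 0.04. Among the receptors Itga1, an integrin chain, had a difference of 0.32 and Ddr2, a receptor kinase for fibrillar collagen, of 0.19, and neither passed.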

How the data were processed

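The deposited values are log2 values from RMA (background correction, normalization between arrays and probe set summary), per the submitters' processing notes, which give no version. Per the labels, 50 ng of total RNA was amplified in 2 cycles from oligo dT primers. Each of the 45101 probe sets has a median of 0 over the 4 arrays, so levels are lost. The log base is not stated and was inferred from the numeric step of the values, read to a tolerance of 0.1 of a step. Precision is limited by having 4 arrays.

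Without 64 control probe sets, the 34945 with 1 gene symbol gave 18193 genes, each the mean over its probe sets, with coordinates from RefSeq (GRCm38.p6). limma 3.58.1 (R 4.3.3) was fitted on group alone over all genes and over all probe sets, after a test on simulated data. Members, classes and lists were chosen with earlier results of these data known. Values in every array are given for cartilage and perichondrial or bone collagens, chains of 1 trimer, genes or probe sets with an unadjusted p under 0.05 and the 5 largest differences in each direction. Those of Col13a1, Col17a1, Col18a1, Col23a1 and Col26a1, outside this rule, were added after their values were seen. Alternatives were the median over probe sets, leaving out probe sets with names ending in _s_at, _x_at or _a_at, and leaving out dim probe sets. Leaving out by name kept 38 collagen genes, without Col2a1, and leaving out dim probe sets kept 39. Further alternatives were other normalizations, an unmoderated fit, a looser threshold of 0.1, a block by replicate number and leaving out each array.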

Additional observations from a re-analysis of the deposited data

How the results depend on the processing

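The count of collagen genes past the threshold was 0 with all arrays and under the other settings, including an adjusted p under 0.1, except that it was 1 without Cilia-deleted replicate 1 (Col5a2) and 1 without Cilia-deleted replicate 2 (Col3a1), so the range over the fits without 1 array was 0 to 1. The count of collagen probe sets was 0 in every alternative run. Unadjusted, 3 collagen genes had p under 0.05 with limma. Over all genes 2 passed, against 14 with quantile normalization repeated, 4 without the dimmest probe sets, 1 without moderation, 1 with the replicate number as a block, 56 without Cilia-deleted replicate 1 and 38 without Cilia-deleted replicate 2. Fits that leave out an array assume that the lone sample varies like the other group. The median difference of the cartilage collagens ran from -0.06 to 0.23 without 1 array, and that of the perichondrial or bone collagens from -0.42 to 0.53. The correlation over genes of the deviations of same-numbered samples was 0.139, which with 2 pairs does not show that the numbers pair the samples; with the replicate block 0 collagen genes passed, as without it, and the smallest adjusted p among collagens was 0.4.

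Of the 42 collagen genes, 21 reversed when single arrays were left out: Col10a1 from -0.46 to 0.72, Col11a1 from -0.04 to 0.11, Col11a2 from -0.11 to 0.30, Col12a1 from -0.34 to 0.03, Col13a1 from -0.12 to 0.47, Col14a1 from -0.24 to 0.09, Col15a1 from -0.48 to 0.14, Col18a1 from -0.18 to 0.41, Col19a1 from -0.03 to 0.19, Col1a1 from -0.67 to 0.41, Col1a2 from -0.51 to 0.76, Col22a1 from -0.45 to 0.06, Col3a1 from -1.27 to 1.70, Col4a1 from -0.22 to 1.40, Col4a3 from -0.13 to 0.06, Col5a1 from -0.23 to 0.65, Col5a3 from -0.08 to 0.18, Col6a1 from -0.14 to 0.84, Col6a3 from -0.34 to 0.42, Col8a1 from -0.19 to 0.08 and Col9a2 from -0.12 to 0.19. Col9a3, at 0.00 with all arrays, ran from -0.08 to 0.07. The share of all genes that reversed was not computed, so 21 of 42 cannot be read as a trait of the family. Apart from leaving out arrays, the only reversal was Col12a1, at 0.03 with the median over probe sets. The cause was not tested. The number of arrays and the spread between replicates set the width of the intervals, whose median half-width over the collagens was 0.411. Signal over background could not be read from centred values.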
